A study of Homo sapiens with 2 samples.

Results

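The 9 genes encoding regulators of B-cell development, BACH2, LEF1, IRF8, SPIB, POU2AF1, POU2F2, MEF2C, BCL11A and BCL6, were examined for binding of PAX5 in NALM6, a long-established leukaemia line of human B-cell precursors. A PAX5 peak was assigned to a gene when its summit lay in the hg19 span given for that gene or within 10 kb on either side. By this rule, which uses positions and no measured level, 36 of the 21361 deposited peaks (0.169%) belonged to 8 of the 9 genes. BCL11A held 8 peaks, MEF2C 7, BACH2 6, LEF1 5, SPIB 5, POU2F2 2, BCL6 2 and POU2AF1 1. IRF8 held none. The binding data come from 1 pooled chromatin immunoprecipitation and sequencing (ChIP-seq) sample, for which an Abcam antibody to PAX5 was used, set against 1 input control made without antibody. Both samples are labelled as untreated NALM6 cells grown for 4 days in RPMI without phenol red, with 10% serum and 2 mM glutamine. The control also carries the name RXL in its title, which the labels do not explain. The ChIP pool had 46190180 tags and the control 25416858. There was no replicate of either, so no p-value between samples is given, and the intervals below cover counting error only.

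PAX5 is a transcription factor that recognises DNA through its paired domain. It commits lymphoid progenitors to the B lineage by activating B-cell genes and repressing genes of other lineages. Among the genes it is known to activate, as shown largely in mice, are further transcription factors, which in turn shape the later steps of B-cell development. The files hold binding and no expression, so whether PAX5 activates these genes in NALM6, and whether the cells express B-lineage markers, was not examined here.

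In the 9 windows together PAX5 peaks were dense but of ordinary strength. With their flanks the windows covered 1.09 Mb and held 33.0 peaks per Mb, against 7.24 peaks per Mb over the rest of chromosomes 1 to 22 and X, a ratio of 4.55 (95% interval 3.28 to 6.31 from the Poisson error of both counts). Without the flanks, 23 peaks in 6 genes were left, at a ratio of 3.48 (2.31 to 5.24). The rest includes stretches without genes, and other genes were not used for comparison. Fold enrichment is the authors' ratio of ChIP signal to local control background, with 1 added to each. Its median was 3.64 at the 36 peaks, against 3.89 over all 21361 peaks. A fold of at least 5 was reached by 8 of the 36 peaks (22.2%, 95% Wilson interval 11.7 to 38.1), against 25% of all peaks. The member nearest above this mark had a fold of 5.71 and the nearest below it 4.66. A fold of 10 was reached by 1 of the 36, at LEF1, against 1.72% of all peaks. Both shares were near those of the whole list.

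The promoters of BACH2, BCL11A and BCL6 are shown as sequences of genes with a peak near the 5′ end of the window. They were taken by the fold of their start peak among genes with a summit within 1 kb of the start. POU2AF1 led that order and has no entry in the promoter table. Each line gives the 250 bases before the outermost start listed by RefSeq on GRCh38.p14, read 5′ to 3′ on the strand of the gene. This build differs from the hg19 of the peaks, and no peak was placed on these bases. The BACH2 sequence is chr6:90296844-90297093, that of BCL11A chr2:60553925-60554174 and that of BCL6 chr3:187745469-187745718, all on the minus strand.
BACH2: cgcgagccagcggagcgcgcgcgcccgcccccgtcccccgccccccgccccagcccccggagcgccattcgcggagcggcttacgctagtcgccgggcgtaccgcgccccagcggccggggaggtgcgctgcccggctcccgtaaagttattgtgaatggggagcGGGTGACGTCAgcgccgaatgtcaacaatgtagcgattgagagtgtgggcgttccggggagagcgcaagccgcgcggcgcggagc
BCL11A: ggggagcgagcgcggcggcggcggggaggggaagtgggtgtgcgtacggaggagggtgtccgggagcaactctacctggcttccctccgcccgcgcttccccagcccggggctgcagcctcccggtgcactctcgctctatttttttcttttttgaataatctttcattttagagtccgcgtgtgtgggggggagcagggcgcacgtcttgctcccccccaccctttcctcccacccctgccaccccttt
BCL6: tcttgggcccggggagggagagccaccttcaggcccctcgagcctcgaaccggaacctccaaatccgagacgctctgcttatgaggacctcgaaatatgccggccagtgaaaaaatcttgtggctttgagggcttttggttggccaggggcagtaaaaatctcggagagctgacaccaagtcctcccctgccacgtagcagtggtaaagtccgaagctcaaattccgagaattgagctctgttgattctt
Capitals mark overlapping matches to GNGTGAC, from 85 to 79 bases before the BACH2 start, and to the palindrome TGACGTCA, a CREB/ATF-type element, from 82 to 75 bases before it. These 2 motifs were chosen after the sequences had been seen. On either strand GNGTGAC occurs in 11% and TGACGTCA in 1.65% of the 35116 promoter windows of 250 bases. Of the 20 windows listed for 8 of the 9 genes, 6 held GNGTGAC, at BACH2, BCL11A, LEF1, MEF2C and POU2F2, where the BCL11A match lay at another of its starts, and 1 held TGACGTCA, at BACH2. The motif GCGTGAC, the core of many PAX5 paired-domain sites and a special case of GNGTGAC, was in none of the 20, against 2.2% of all windows. GTGACC was in 1 of them, at LEF1, against 11.8% of all, and an EBF1-type palindrome was in none, against 1.06%. These motifs were likewise searched on both strands, and GTGACC can overlap the other matches. The share of GC was 73.6% in the BACH2 sequence, 64.8% in that of BCL11A and 54.4% in that of BCL6, with a median of 58% over all windows.

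The peaks were concentrated at the 5′ ends of the genes. Gene starts were taken as the 5′ end of each window, which the rule gives to 1 kb, so that distances under 1 kb are approximate and the side of the start is then not resolved. Of the 36 summits, 18 (50%, Wilson interval 34.5 to 65.5) lay within 5 kb of a start, in 8.24% of the length examined. This is a density of 200 peaks per Mb within 5 kb of the starts and 18.0 per Mb beyond it. Starts carried a summit within 5 kb at 7 of the 9 genes, all but MEF2C and IRF8. Only the 5′ end of each window was used, although RefSeq lists 7 starts for MEF2C and 2 for IRF8. The median fold was 3.22 for the 18 peaks near starts, against 4.44 for the 18 farther away. With the limit at 10 kb, the median was 3.40 for 23 peaks near starts, against 4.43 for 13 farther away. Of the 8 peaks reaching a fold of 5, 3 lay within 5 kb of a start and 5 within 10 kb. The strongest peak of a gene lay within 5 kb of its start at 4 of the 8 genes and within 10 kb at 6. At these called summits the control background had a median of 8.44 reads within 5 kb of a start and 9.0 reads farther away. Control reads over the starts as a whole were not examined. Over the 36 peaks, which share a library, fold and distance from the start gave Spearman's rho = 0.289 as a description. The same shares near starts for genes in general were not determined.

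**Figure D1:**
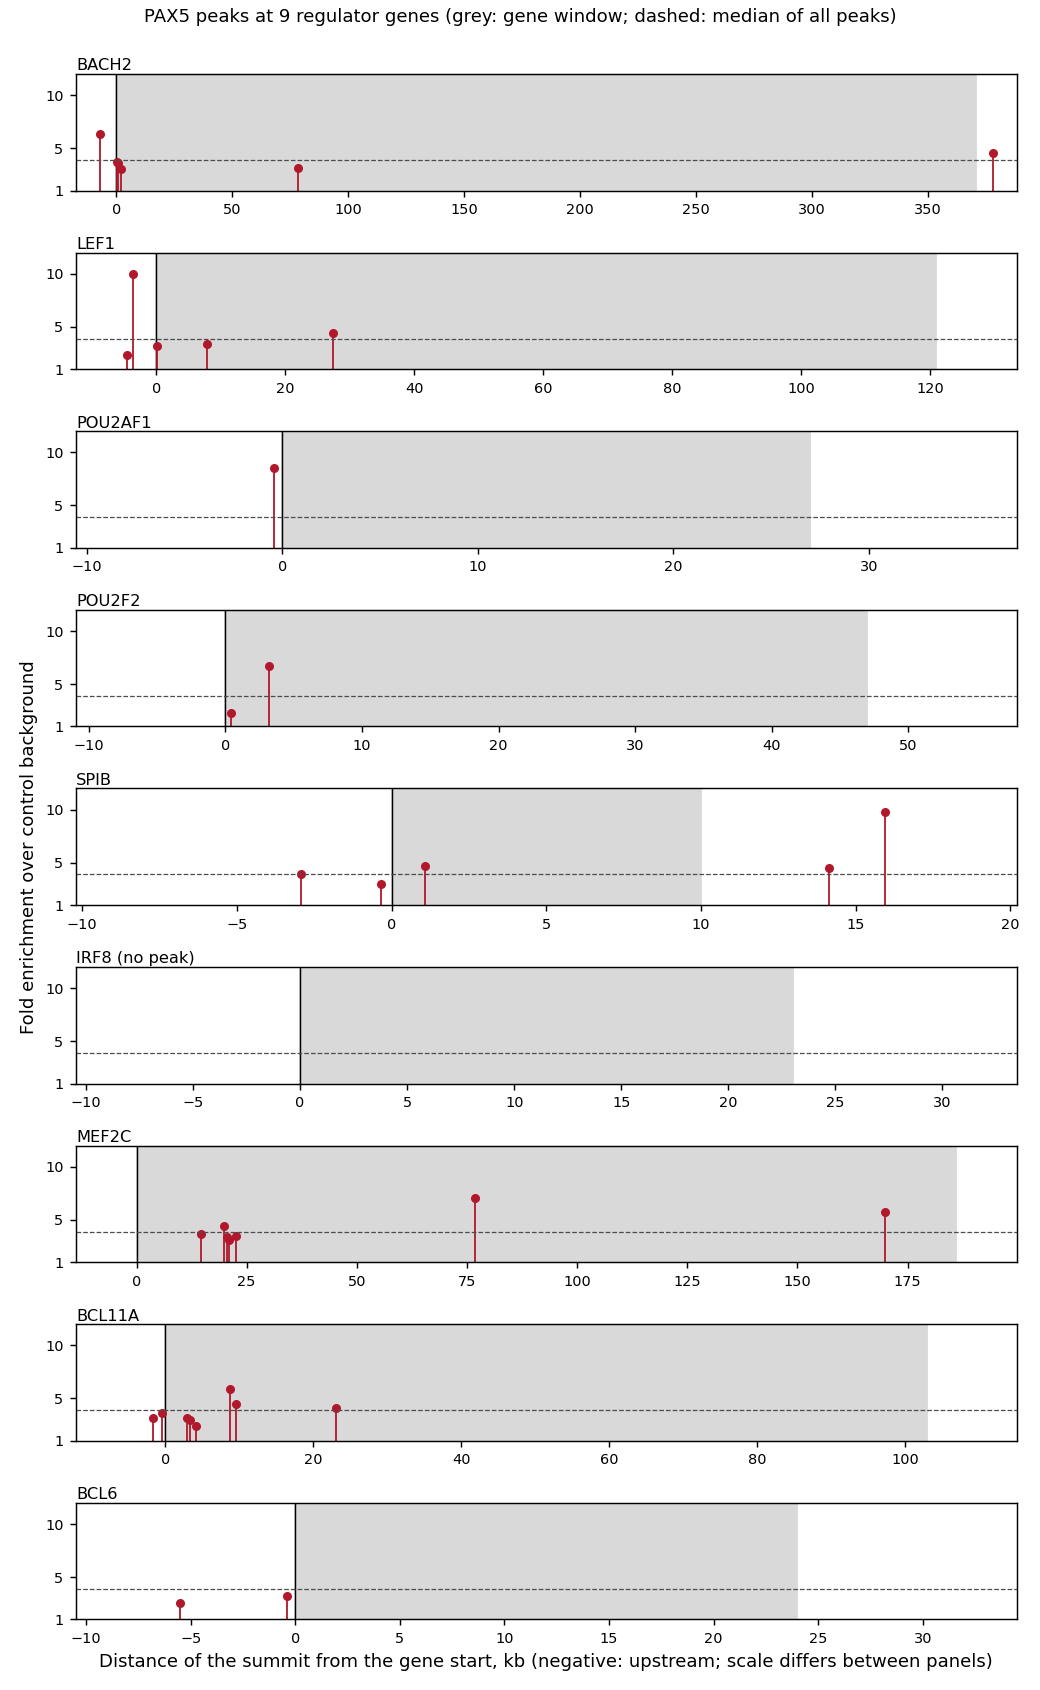
PAX5 peaks at the 9 genes, each panel with the distance of the summit from the gene start in kb (negative is upstream, scales differ) and the fold enrichment over control background. Grey marks the gene window, and the dashed line is the median fold of all peaks (3.89). Most peaks of LEF1, BCL11A and BACH2 gather at the left end of their windows. BACH2 also has peaks 78.5 and 378 kb from its start. The MEF2C peaks begin 14.7 kb inside its window.

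BACH2 encodes a bZIP repressor with a BTB domain that holds back the plasma cell programme in B cells. Its window on chromosome 6 from 90636000 to 91007000 held 6 peaks with folds of 3.06 to 6.36. The strongest, from 91014021 to 91014479, had its summit 7.23 kb upstream of the start. It held 160 ChIP reads (exact Poisson 95% interval 136.2 to 186.8), a signal of 88.04 reads after scaling to the depth of the control, against a control background of 13 reads, and ranked 2416 of 21361 by fold. Peaks near the BACH2 start, which is given only to 1 kb, were weaker. A peak from 91006589 to 91007085 had its summit 26 bp from the start, with 60 ChIP reads over a background of 8.10 and a fold of 3.74 (2.88 to 4.78 with the background taken as fixed). Peaks 0.625 kb from the start and 2.16 kb inside the gene had folds of 3.58 and 3.06, with 53 and 40 ChIP reads. The interval of the upstream peak, 5.42 to 7.41, did not overlap those of these 3 peaks. The long body of the gene was almost empty. Between the start cluster and the 3′ end it held a single peak, 78.5 kb from the start, where 67 ChIP reads stood on 11 control reads at a fold of 3.16. A peak from 90628757 to 90629026, past the 3′ end, had 56 ChIP reads over 6.0 and a fold of 4.54. Just outside the limit of 10 kb, 18.4 kb upstream of the start, a further peak reached a fold of 8.05 with 174 ChIP reads over a background of 11.

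LEF1 encodes an HMG-box factor that acts with β-catenin in Wnt signalling and is active in B-cell progenitors. It had the highest fold among all 36 peaks. This peak, on chromosome 4 from 109092638 to 109094400, was 1763 bp wide, with its summit 3.67 kb upstream of the start. It had 168 ChIP reads (144 to 195), a scaled signal of 92.4, against a background of 8.32, which gave a fold of 10.0 (8.58 to 11.6) and rank 362 of 21361. Another summit followed 885 bp farther upstream, with 57 ChIP reads over a background of 13 and a fold of only 2.31, the lowest at this gene. The peak nearest the start, with its summit 64 bp from it, had 51 ChIP reads over 8.10 and a fold of 3.19. Inside the gene, peaks 7.85 and 27.4 kb from the start had folds of 3.40 and 4.43, with 60 and 111 ChIP reads. No peak was called in the remaining 3′ part of the window, which runs from 108969000 to 109090000. In RefSeq on GRCh38.p14 the antisense RNA gene LEF1-AS1 and the protein-coding gene LOC124900752 overlap the 5′ end of LEF1, and ChIP peaks carry no strand that could tell them apart.

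POU2F2 encodes OCT2, which binds the octamer element of immunoglobulin genes, and POU2AF1 encodes its B-cell coactivator OBF-1. Each had a strong peak at or close to its start. The single POU2AF1 peak, on chromosome 11 from 111249209 to 111250974, spanned the start end of its window, 111223000 to 111250000. It was the widest of the 36 at 1766 bp, with its summit 437 bp from the start. It had 147 ChIP reads (124 to 173), a scaled signal of 80.9, against a background of 8.55, and a fold of 8.57 (7.26 to 10.1). BTG4 follows POU2AF1 within 10 kb on this side in RefSeq, so this flank too is shared. Peaks wider than 1000 bp were 2 of the 36, those of POU2AF1 and LEF1, against 3.21% of all peaks. At POU2F2, on chromosome 19 from 42590000 to 42637000, the stronger peak from 42633583 to 42634062 lay 3.20 kb inside the gene. It had 142 ChIP reads (120 to 167), a scaled signal of 78.1, against a background of 10.8, and a fold of 6.71 (5.66 to 7.89). The POU2F2 peak at the start, 376 bp from it, had 47 ChIP reads against a background of 11. Its fold of 2.24 (1.67 to 2.95) was the lowest of all 36 peaks, and so was its −log10 q of 1.60. The window of POU2F2 covers only part of the gene as RefSeq lists it on GRCh38.p14, so other starts of that gene were not examined. ZNF574 and DEDD2 lie within 10 kb of the ends of that longer gene, which need not be within 10 kb of the window. Both peaks lay inside the window.

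SPIB and IRF8 encode an ETS factor related to PU.1 and an interferon regulatory factor, 2 families whose members bind DNA together in B cells. With the 10 kb flanks, their windows stood at opposite ends of the set by peak density. SPIB, on chromosome 19 from 50922000 to 50932000, had the densest window, with 5 peaks in 30 kb. Without the flanks it held 1. Near its start, peaks 2.93 kb upstream, 0.351 kb from the start and 1.07 kb inside had folds of 3.90, 3.01 and 4.66, with 62, 32 and 49 ChIP reads over backgrounds of 8.0, 5.18 and 5.00. The 32 reads were the fewest at any of the 36 summits. The larger signals lay past the 3′ end of the window, which is shorter than the gene in RefSeq on GRCh38.p14. A peak from 50937579 to 50938445 had 246 ChIP reads (216 to 279), the most of the 36, a scaled signal of 135, against a background of 13, and a fold of 9.74 (8.57 to 11). Its −log10 q of 81.3 ranked 103 of 21361. A neighbour 1824 bp closer to SPIB had 145 ChIP reads over 17.0, the highest background of the set, and a fold of 4.49. RefSeq places POLD1 before and MYBPC2 after SPIB, each within 10 kb of the gene on GRCh38.p14. The peaks in the flanks can therefore not be assigned to SPIB alone.

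IRF8 had no peak between 85933000 and 85956000 on chromosome 16 or within 10 kb of it. At the mean density of that chromosome 0.491 peaks would fall in 43 kb, and the exact Poisson 95% upper limit of a count of 0 is 3.69, so the absence was not distinguishable from the mean. Of 68356 end-to-end genome tiles of 43 kb, 82% also held no peak. The nearest peak was just beyond the limit, 10.6 kb upstream of the start, from 85921995 to 85922745. It had 58 ChIP reads over a background of 5.18 and a fold of 5.33. Another lay 30.7 kb upstream, with 54 ChIP reads over 6.97 and a fold of 3.85. On the 3′ side the nearest was 110.8 kb away. The nearest peaks beyond the 10 kb limit at other genes were 11.2 kb from the 3′ end of BCL11A, with a fold of 3.31, and 12 kb from that of LEF1, with a fold of 2.99. Among members, the farthest into a flank was the BACH2 peak 7.23 kb upstream.

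**Figure D2:**
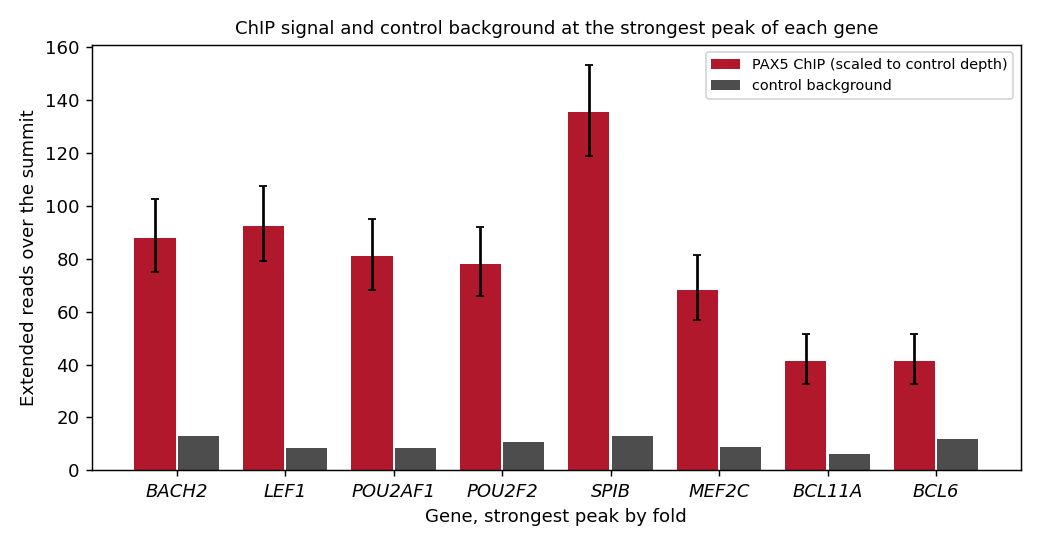
Extended reads over the summit of the strongest peak of each gene, ChIP scaled to the depth of the control (left bar) and control background (right bar). Error bars are exact Poisson 95% intervals of the ChIP reads. ChIP signal ran from 41.3 reads at BCL11A and BCL6 to 135 at SPIB, against control backgrounds of 6.21 to 13.

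MEF2C encodes a MADS-box factor with roles in lymphoid and muscle development. Its 7 peaks on chromosome 5 all lay inside the window from 88014000 to 88200000, and none was within 10 kb of the start. The strongest, from 88122889 to 88123428, was 76.8 kb inside the gene and had 124 ChIP reads (103 to 148), a scaled signal of 68.2, against a background of 8.77, with a fold of 7.08 (5.91 to 8.43). The next, from 88030033 to 88030390, was 170 kb from the start, toward the 3′ end, with 102 ChIP reads over 9.0 and a fold of 5.71 (4.68 to 6.91). The other 5 formed a cluster between 14.7 and 22.6 kb from the start. Their folds ran from 3.09 to 4.44, led by a peak with 87 ChIP reads over 10.0, and 4 of the 5 summits followed each other at gaps of 454 to 1539 bp. RefSeq lists 7 starts for MEF2C, and distances here refer only to the 5′ end of the window. The noncoding gene MEF2C-AS1 overlaps the 5′ end of MEF2C in RefSeq.

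BCL11A encodes a zinc-finger repressor required for early lymphoid development. It held the most peaks, 8, with folds of 2.36 to 5.86. On chromosome 2, in a window from 60678000 to 60781000, all 8 lay between 1.67 kb upstream and 23.1 kb downstream of the start, and the remaining 3′ part had no peak. The strongest, from 60771926 to 60772661, was 8.76 kb inside the gene. It had 75 ChIP reads (59.0 to 94.0), a scaled signal of 41.3, against a background of 6.21, with a fold of 5.86 (4.64 to 7.31). Its neighbour 733 bp away had 72 ChIP reads over 8.10 and a fold of 4.46. The most distant peak, 23.1 kb inside, had 34 ChIP reads over a background of 3.83, the lowest of the set, and a fold of 4.08. The 5 peaks within 5 kb of the start had 41 to 60 ChIP reads and folds of 2.36 to 3.60. The peak nearest the BCL11A start was 479 bp from it, with 50 ChIP reads over 6.93 and a fold of 3.60.

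BCL6 encodes a BTB zinc-finger repressor of the germinal centre that also protects precursor B cells. By its strongest peak it was the weakest of the 8 bound genes. Its window on chromosome 3 from 187439000 to 187463000 had no summit inside it and 2 past its 5′ end. The nearer of these lay within 1 kb of the start, where the side of the start is not resolved. The peak from 187463239 to 187463520, with its summit 399 bp from the start, had 75 ChIP reads (59.0 to 94.0), a scaled signal of 41.3, against a background of 12. Its fold of 3.25 (2.57 to 4.06) was below the median of all peaks. The second BCL6 peak, 5.51 kb upstream, had 64 ChIP reads over 13 and a fold of 2.59. RTP2 lies within 10 kb of BCL6 on the 3′ side, and no peak was called in that flank. The noncoding gene BCL6-AS1 overlaps the 5′ end of BCL6 in RefSeq. At BCL11A the same 75 ChIP reads gave a fold of 5.86, because the control background there was 6.21 and not 12 reads.

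**Figure D3:**
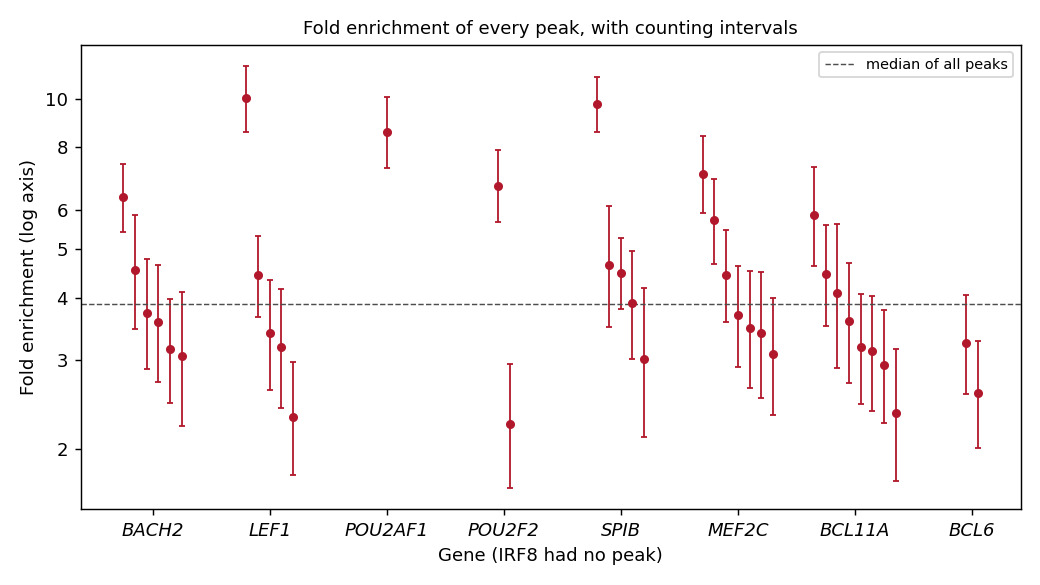
Fold enrichment (log axis) of all 36 peaks by gene, in descending order within a gene, with 95% counting intervals that take the control background as fixed. The dashed line is the median of all peaks (3.89). LEF1, SPIB, POU2AF1, MEF2C, POU2F2, BACH2 and BCL11A each have a peak above a fold of 5, and both BCL6 peaks lie below the median.

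Ordered by their strongest peak, the genes ran LEF1 (10.0), SPIB (9.74), POU2AF1 (8.57), MEF2C (7.08), POU2F2 (6.71), BACH2 (6.36), BCL11A (5.86) and BCL6 (3.25). The SPIB peak in this order lies in the 3′ flank and cannot be assigned to SPIB alone. Without the flanks the order changed. MEF2C then led with 7.08, LEF1 had 4.43, SPIB 4.66 and BACH2 3.74, and POU2AF1 and BCL6 had no summit in their windows. Their nearest summits lay only 437 and 399 bp past window ends given to 1 kb, so the loss of these peaks is not resolved. With the flanks, the counting intervals of every pair of neighbours in this order overlapped, except those of BCL11A and BCL6. Ranking by ChIP reads chose the same strongest peak at all 8 genes. The number of peaks did not follow this order, since BCL11A had the most peaks and the second lowest leading fold, and POU2AF1 had a single strong peak.

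Density within single windows was less certain than over the set. Each gene's count was set beside the mean of its own chromosome and beside end-to-end tiles of the same length over chromosomes 1 to 22 and X. BCL11A had 65.0 peaks per Mb against 6.14 on chromosome 2, and 1.6% of tiles held as many peaks. SPIB had 167 per Mb against 20.2 on chromosome 19, and 0.351% of tiles held as many. LEF1 had 35.5 per Mb against 3.86 on chromosome 4 (6.11% of tiles), and MEF2C 34.0 against 5.12 on chromosome 5 (5.74% of tiles). For these 4 genes the Poisson interval of the count excluded the chromosome mean. Without the flanks SPIB held 1 peak (0.0253 to 5.57), an interval that included the 0.202 peaks given by its chromosome mean, while those of BCL11A, LEF1 and MEF2C still excluded it. It included the mean for BACH2, with 15.3 per Mb against 6.78 on chromosome 6 (17.4% of tiles), for POU2AF1, with 21.3 against 7.42 on chromosome 11 (19.3%), and for POU2F2, with 29.9 against 20.2 on chromosome 19 (11%). BCL6, with 45.5 against 5.66 on chromosome 3 (7.09%), was at the border. These intervals treat peaks as independent, and may be too narrow, because peaks lay close together. Of the 36 members, 29 (80.6%, Wilson interval 65.0 to 90.2) had another summit within 10 kb, against 51.9% of all peaks. With flanks of 50 kb the share was 64.7% (51.0 to 76.4), an interval that included the share of all peaks.

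**Figure D4:**
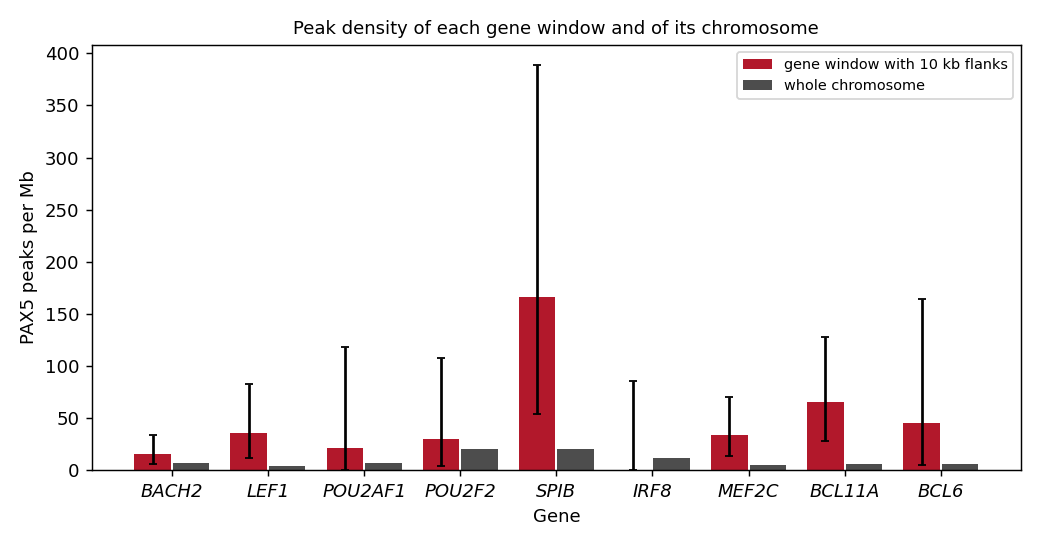
PAX5 peaks per Mb in each gene window with 10 kb flanks (left bar) and over the whole of its chromosome (right bar). Error bars are exact Poisson 95% intervals of the window count. SPIB at 167 and BCL11A at 65.0 peaks per Mb are highest, and IRF8 has none.

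The local control background at the 36 summits ran from 3.83 to 17.0 reads, with a median of 8.89, against 8.0 over all peaks. ChIP reads had a median of 60, against 61 over all peaks, and the median width was 375 bp, against 383 bp. All 36 peaks were listed with identical borders in the authors' cleaned list, as were 21351 of all 21361 (100% when rounded).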

How the data were processed

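PAX5 ChIP-seq of NALM6 cells was compared with an input control, 1 sample each. The submitters' processing notes name BWA and the build hg19. Per the file headers, the caller was MACS2 2.1.1.20160309, run on pooled ChIP tags with a combined control, with tags of 50 bp extended to 225 bp, no model and a q threshold of 0.05. The pileup signal deposited by the authors counts the extended ChIP reads at a summit, scaled by 0.550 to the control's depth. The deposited fold is the ratio of pileup to local control background, with a pseudocount of 1. The −log10 p and −log10 q values were deposited by the authors from the caller's Poisson test. All these values are the authors' and served to describe and rank peaks in this list alone. A second deposited list gives positions after a cleaning step not given in the sources used here. How many libraries were pooled is likewise not given, and a pool hides the spread between them.

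The pileup divided by the scale gave the ChIP reads (100% whole within 0.005 pileup units), and the background from pileup and fold. Read intervals are exact Poisson and shares Wilson, at 95%. Peaks entered by summit position in 9 windows, named as all 9 genes with the strongest, start-proximal and most-read peaks. Strands and promoters came from the RefSeq promoter windows (GRCh38.p14), which cover 8 of the 9 genes, and the strand of POU2AF1 from general knowledge. An annotation of hg19 was not used, so further PAX5 target genes were not counted. The members and lists were chosen with earlier results of these data known. Alternatives changed the window extension, merging, q threshold, list, ranking, distance to the start and, added after seeing the data, the inclusion of SPIB. Scripts were tested on simulated peaks. The tools were scipy 1.17.1, pandas 2.3.3, numpy 2.4.6 and matplotlib 3.10.9 under Python 3.11.15.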

Additional observations from a re-analysis of the deposited data

How the results depend on the processing

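Depth limits the order of peaks with overlapping counting intervals, and the spread between libraries is unknown, as there was 1 pooled ChIP. No paired analysis was possible because each group has 1 sample. The peak count of 36 was 23 without extension of the windows, which by construction drops every flanking peak. The set then rested on 6 genes. POU2AF1 and BCL6 were at 0, with their nearest summits 437 and 399 bp past window ends given to 1 kb. The strongest peaks of LEF1 and SPIB then had folds of 4.43 and 4.66, and that of BACH2 3.74. With 50 kb flanks all 9 genes held a peak, IRF8 2, and the share with another summit within 10 kb was 64.7% (51.0 to 76.4), no longer apart from the 51.9% of all peaks. SPIB held 1 peak in place of 5 without extension. The 18 peaks within 5 kb of a start were 8 within 1 kb. The density ratio of 4.55 lay between 3.48 and 4.55 in the 6 alternatives run, among them 4.03 without SPIB, and stayed above 1. The median fold lay between 3.58 and 4.44 in the 5 run. At a −log10 q of at least 5, 26 peaks in 8 genes were left, and after merging of peaks within 500 bp there were 30.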
